A study of Mus musculus with 3 samples.

Results

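The retinoic acid genes described here are Aldh1a2, Aldh1a3, Crabp1, Crabp2, Cyp26a1, Cyp26b1, Rarb, Rarg and Rbp4, which make, carry, break down or sense retinoic acid. These 9 genes, of 18193 on the array, were taken by symbol. They have 12 probe sets among the 34945 that the platform annotation pairs with 1 gene symbol. The tissue was the dental papilla, the mesenchyme inside the tooth germ from which pulp and odontoblasts arise. The groups were papillae of ICR mice at embryonic day 16 (E16), at embryonic day 18 (E18) and at postnatal day 3 (P3), with no treatment or genotype named. Papillae were dissected with enzymes from lower first molar germs, and over 20 of them were pooled for each RNA sample. There was 1 array per stage, so no difference has a replicate error and none could be tested. Markers fixed for the papilla mesenchyme, among them Msx1, Pax9, Lhx8 and Barx1, were above the floor defined below on every array in 15 of 15 genes. Markers of dental epithelium were also present, with 14 of 20 at or above the floor at E16, 17 at E18 and 17 at P3.

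Retinoic acid is made from vitamin A. Retinol circulates bound to the Rbp4 protein, is oxidised to retinaldehyde by retinol dehydrogenases and then to retinoic acid by retinaldehyde dehydrogenases of the Aldh1a family. Inside the cell it is bound by the Crabp proteins, it is inactivated by cytochrome P450 enzymes of the Cyp26 family, and it acts through nuclear receptors of the Rar family paired with Rxr partners. Rarb and Cyp26a1 are classical targets of the pathway as well as parts of it, and vitamin A shortage or excess is known to disturb tooth development.

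The promoters of Rarb and Cyp26a1 are shown because the receptors bind direct repeats of a short unit, and both windows hold the same kind of repeat. At E18 against E16 the Cyp26a1 signal was 6.43-fold higher and the Rarb signal 1.78-fold lower. The Rarb difference is under 2-fold and within the gap between probe sets described below. The sequences are those of RefSeq on GRCm38.p6, from 250 bases before to 50 bases after the annotated start, read 5′ to 3′ on the strand of the gene, with the repeat in capitals. The Rarb window lies at chr14:16575427-16575726 on the minus strand and that of Cyp26a1 at chr19:37697558-37697857 on the plus strand.
Rarb promoter: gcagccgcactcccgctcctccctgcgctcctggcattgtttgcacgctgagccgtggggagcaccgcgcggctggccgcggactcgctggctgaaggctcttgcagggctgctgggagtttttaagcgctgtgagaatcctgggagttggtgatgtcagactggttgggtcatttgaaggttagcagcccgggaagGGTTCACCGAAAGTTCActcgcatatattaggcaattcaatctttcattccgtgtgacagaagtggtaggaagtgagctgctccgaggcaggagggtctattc
Cyp26a1 promoter: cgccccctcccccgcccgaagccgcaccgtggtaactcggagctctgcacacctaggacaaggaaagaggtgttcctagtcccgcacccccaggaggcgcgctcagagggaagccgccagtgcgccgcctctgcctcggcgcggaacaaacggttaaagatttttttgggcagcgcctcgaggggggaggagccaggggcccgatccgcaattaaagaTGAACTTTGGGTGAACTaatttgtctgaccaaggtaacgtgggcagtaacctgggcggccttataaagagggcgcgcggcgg
The repeat lies 53 to 37 bases before the start of Rarb (chr14:16575513-16575529), on the strand of the gene. In Cyp26a1 it lies 32 to 16 bases before the start (chr19:37697776-37697792), on the opposite strand. Read in the direction of the repeat, with capitals for the whole element, the elements are as follows.
Rarb element: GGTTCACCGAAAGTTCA
Cyp26a1 element: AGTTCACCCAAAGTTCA
Of their 17 bases 15 are the same. The differences are G1A and G9C, with the base of Rarb first, the position counted from the 5′ end of the element, and the base of Cyp26a1 last.

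The search covered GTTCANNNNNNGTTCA, GTTCANNNNNNGGTCA, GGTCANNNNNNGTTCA and GGTCANNNNNNGGTCA on both strands, spacings that leave 5 bases between units of 6. Of 32851 RefSeq promoter windows of the same length, 0.0761% hold the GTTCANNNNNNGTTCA form found in both genes, and 0.247% hold any of the 4. RefSeq windows were matched for 7 of the 9 genes (9 windows). Those of Aldh1a2, Crabp1, Cyp26b1, Rarg (2 windows) and Rbp4 (2 windows) hold none of the 4 forms, nor any of the same units with 2 bases between them (GTTCANNNGTTCA and its 3 variants, in 0.399% of all windows).

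The deposited values are ratios. In 90.4% of probe sets, the 12 of the retinoic acid genes included, the values are relative to the middle of the 3. These keep the differences between stages and not the level. The other 4347 have a middle value under 1 and were not centred in this way. A level was recovered from the size of the steps in which the values lie, and is called the recovered signal. It has the scale of the P3 array, and the true signal can be larger by a common factor on all 3 arrays but not smaller. Signals under 82.0, the median over all probe sets and arrays, were set to this floor. A difference with 1 stage under the floor is therefore a bound, written "at least", and a probe set under the floor at both stages was not compared. Differences of 2-fold or more (1 on the log2 scale) were counted. The other look at error is the gap between 2 probe sets of the same gene in their difference between stages. It was taken for the 2 with the highest mean signal among those at or above the floor on both arrays. The gap had a median of 1.44-fold at E18 against E16 (4047 genes), 1.39-fold at P3 against E18 (3994) and 1.44-fold at P3 against E16 (3982). Its 95th percentile was 3.19-fold, 2.77-fold and 3.16-fold in that order. This gap misses whatever a whole sample or array shares. Of the 12 probe sets, 5 were at or above the floor at every stage (those of Aldh1a3, Crabp2, Cyp26a1, Rarb and Rarg that are described first), 3 at some stages (Aldh1a2, Crabp1 and Rbp4) and 4 at none.

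**Figure D1:**
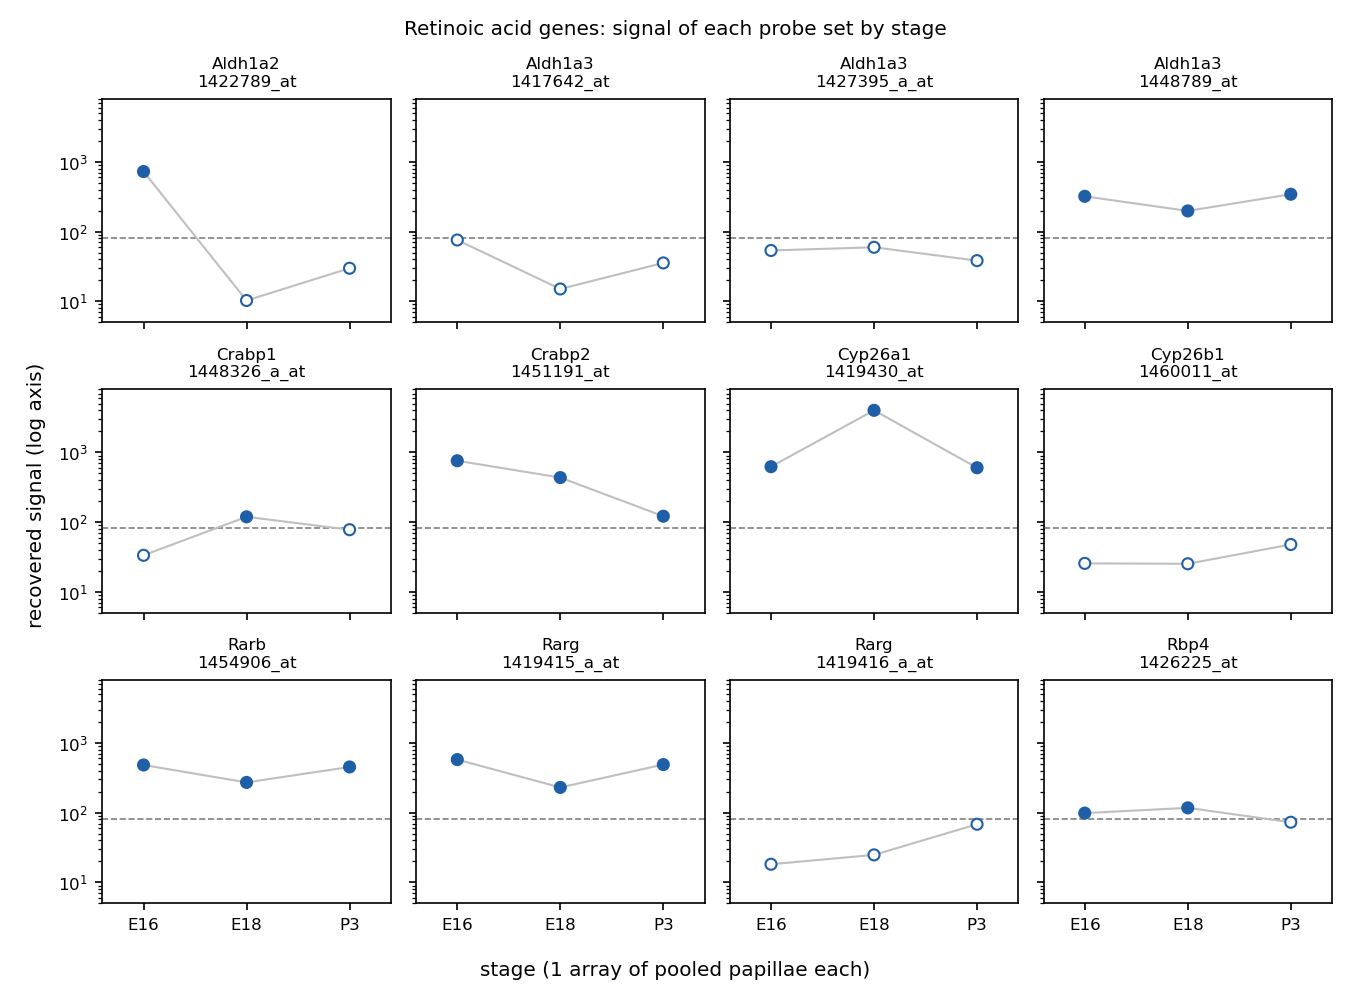
Recovered signal (vertical log axis) of the 12 probe sets of the 9 retinoic acid genes at E16, E18 and P3, 1 array each; filled points are at or above the floor of 82.0 (dashed line) and open points below it. Aldh1a2 stands above the floor at E16 alone, Cyp26a1 peaks at E18 with 4016, and Crabp2 is highest at E16 with 759.8 and lowest at P3 with 122.

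Aldh1a2 encodes the main retinoic acid synthesising enzyme of the embryonic mesoderm. Its probe set had recovered signals of 726 at E16, 10.3 at E18 and 29.8 at P3, so the signal stood far above the floor at E16 and under it at both later stages. It was at least 8.86-fold lower at E18 compared with E16, and at least 8.86-fold lower at P3 compared with E16, while E18 and P3 could not be compared. As deposited, without a floor, the ratios were 24.4 at E16, 0.344 at E18 and 1.0 at P3. Both bounds exceed the 95th percentile of the gap between probe sets, but Aldh1a2 has 1 probe set, so no other measurement of the gene stands beside it.

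Other cell populations moved at the same step. At E18 against E16, 3 of 4 measured erythroid markers were at least 2-fold lower (Alas2 7.48-fold, Hbb-y 6.68-fold, Slc4a1 at least 2.07-fold), with summed recovered signals over 7 genes of 1768 at E16, 378 at E18 and 297 at P3. Hba-x, Hbb-bh1 and Epb42 were below the floor throughout. Of 10 measured endothelial markers 5 were lower at E18, led by Kdr (2.42-fold), Flt1 (2.34-fold) and Cldn5 (2.29-fold), and the 12 genes summed to 4936 at E16, 2513 at E18 and 2987 at P3, with Pecam1 and Tie1 under the floor throughout. Of 15 papilla mesenchyme markers 8 were lower at E18 and 3 higher, with Lhx6 4.45-fold and Twist1 4.37-fold lower and Dlx2 8.47-fold higher, and sums of 18827 at E16, 14997 at E18 and 19507 at P3. Markers of other populations were higher at E18. Of 10 odontoblast markers 4 were at least 2-fold higher and 1 lower, led by Dspp (at least 49.7-fold), Dmp1 (at least 45.4-fold) and Phex (at least 3.99-fold), and their sums were 3617 at E16, 11856 at E18 and 39806 at P3. Of 11 measured macrophage and leukocyte markers 4 were higher and 0 lower, led by C1qb (at least 2.93 on the log2 scale), Mrc1 (4.72-fold) and Pf4 (3.10-fold), and the 14 genes summed to 2637 at E16, 5042 at E18 and 9224 at P3, with Itgam under the floor throughout. Among Schwann cell markers 1 of 3 was higher (Mbp, 2.48-fold) and among cartilage markers 1 of 4 (Sox9, 2.89-fold), with 0 lower in both. Other Mbp probe sets above the floor on every array were 2.45-fold higher, 2.07-fold lower and 1.02-fold higher, so Mbp has no single direction. In pooled tissue, fewer cells of a type and less RNA per cell cannot be told apart, and the part of these populations in the Aldh1a2 difference was not tested.

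Aldh1a3 encodes a second retinaldehyde dehydrogenase, known for its role in eye and nasal development. Its brightest probe set had recovered signals of 321 at E16, 198 at E18 and 343 at P3. The E18 value was the lowest of the 3, 1.62-fold below E16, and P3 was 1.73-fold above E18, both under 2-fold and within the 95th percentile of the gap between probe sets. At P3 and E16 the signals were nearly equal (1.07-fold). The other probe sets stayed under the floor at every stage, with 75.7, 15.0 and 35.5 in stage order in the first and 53.5, 59.5 and 38.3 in the second, so no difference was read from them.

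Cyp26a1, which oxidises retinoic acid to inactive products, had recovered signals of 624 at E16, 4016 at E18 and 603 at P3. E18 stood apart from both other stages, 6.43-fold higher than E16, and P3 was 6.66-fold lower than E18 and level with E16 (1.04-fold lower). Of 10352 genes at or above the floor on both arrays, 19 had a larger increase at E18 against E16. At P3 against E18, 13 of 10365 such genes had a larger decrease. Genes with 1 stage under the floor were not ranked, among them Dspp (at least 49.7-fold higher at E18) and Krt17 (at least 8.46-fold lower at P3). Of 11607 genes measured at both steps, 371 (3.2%) were at least 2-fold higher at E18 and then at least 2-fold lower at P3. Cyp26a1 was the sole retinoic acid gene with this shape.

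Epithelial markers moved with Cyp26a1. At E18 against E16, 12 of 17 measured dental epithelium markers were at least 2-fold higher and 0 lower, led by Amelx (at least 6.88-fold), Odam (at least 6.0-fold) and Perp (5.63-fold), with a median difference of 2.33-fold. At P3 against E18, 13 of 19 passed 2-fold downward and 4 upward and a median 3.12-fold lower, with Krt17 at least 8.46-fold lower and the enamel genes Mmp20 27.1-fold and Enam at least 11.4-fold higher. The 20 genes summed to 10121 at E16, 28656 at E18 and 16871 at P3, and Krt15 alone was under the floor throughout. The P3 sum was led by the enamel genes Ambn with 5377, Mmp20 with 2367 and Amelx with 2340. At P3 against E16, 5 of 19 markers were at least 2-fold higher, all enamel genes (Amelx, Ambn, Enam, Mmp20 and Klk4), and 6 were lower. The 371 genes that were higher at E18 and then lower included 10 of these markers, among them Trp63, Dsp, Cdh1 and Krt5. The part of epithelial RNA in the Cyp26a1 signal was not tested.

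**Figure D2:**
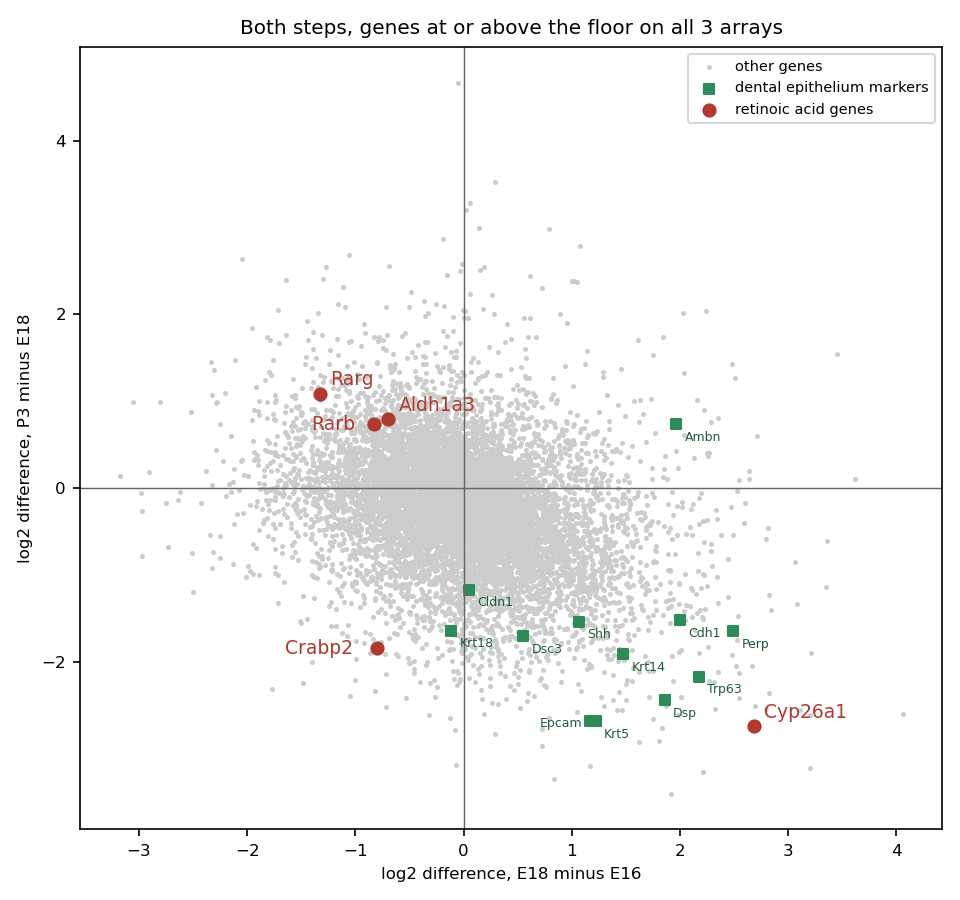
Each point is a gene that reached the floor on every array, by its log2 difference E18 minus E16 (horizontal) and P3 minus E18 (vertical); red points are retinoic acid genes, green squares dental epithelium markers, grey points the other genes. Cyp26a1 (2.69, then -2.74) lies beyond Trp63 and Dsp at the lower right, Rarg, Rarb and Aldh1a3 at the upper left, and Crabp2 (-0.80, then -1.84) at the lower left.

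Cyp26b1, the other enzyme of retinoic acid breakdown on the list, had recovered signals of 25.6 at E16, 25.3 at E18 and 47.8 at P3. All 3 lie under the floor, so no difference was read. Its 1 probe set therefore neither shares nor lacks the E18 peak of Cyp26a1 at a level that could be measured.

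Among the carriers, Crabp2, which passes retinoic acid to its nuclear receptors, had recovered signals of 759.8 at E16, 436 at E18 and 122 at P3. Each later stage was lower, by 1.74-fold at E18 against E16, 3.59-fold at P3 against E18 and 6.25-fold at P3 against E16. The last 2 exceed the 95th percentile of the gap between probe sets, and the first does not. Of 10266 genes at or above the floor on both arrays, 56 (0.545%) had a larger decrease at P3 against E16. Genes under the floor at 1 of these stages were not ranked, among them Aldh1a2 (at least 8.86-fold lower) and Hbb-y (at least 8.23-fold lower). In the same comparison 8 of 10 odontoblast markers were at least 2-fold higher and 1 lower, led by Dspp (at least 231-fold), and 6 of 13 macrophage and leukocyte markers were higher and 0 lower, led by Mrc1 (19.3-fold). Of 15 papilla mesenchyme markers 4 were higher and 7 lower, and 3 of 4 erythroid markers were lower. Of 19 dental epithelium markers 5 were higher and 6 lower, and at P3 against E18, 4 were higher and 13 lower. The part of these populations in the Crabp2 difference was not tested.

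Crabp1, a carrier linked in other work to retinoic acid breakdown, had recovered signals of 33.4 at E16, 119 at E18 and 77.9 at P3, above the floor at E18 alone. It was at least 1.45-fold higher at E18 compared with E16 and at least 1.45-fold lower at P3 compared with E18, bounds that leave the size of both differences unknown. With a floor 0.5 times as high the log2 difference at E18 against E16 was 1.54, past 2-fold, and without a floor 1.83. Rbp4, the retinol carrier of blood, had 98.7 at E16, 117 at E18 and 73.0 at P3, all close to the floor. It was 1.19-fold higher at E18 compared with E16 and at least 1.43-fold lower at P3 compared with E18, with a low recovered signal at every stage.

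Both receptors had their lowest signal at E18 in their brightest probe set. Rarb encodes a retinoic acid receptor whose own gene is induced by retinoic acid, and it had recovered signals of 484 at E16, 272 at E18 and 453 at P3. It was 1.78-fold lower at E18 compared with E16 and 1.67-fold higher at P3 compared with E18, with P3 and E16 nearly level (1.07-fold), and each of these is within the 95th percentile of the gap between probe sets.

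Rarg, the receptor of cartilage and surface epithelia, had 578 at E16, 230.5 at E18 and 490.2 at P3 in its brightest probe set. It was 2.51-fold lower at E18 compared with E16 and 2.13-fold higher at P3 compared with E18, past 2-fold at both steps and within the 95th percentile of the gap between probe sets at both. The second Rarg probe set was under the floor, with 18.2, 24.8 and 68.3 in stage order, so no difference was read from it. Of the 11607 genes measured at both steps, 91 (0.784%) were at least 2-fold lower at E18 and then at least 2-fold higher at P3.

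The E18 array also differed in its controls. The 18 probe sets of spike-ins added at hybridisation read a median 2.17 times as high at E18 as at E16, and 1.04 times as high at P3 as at E16. For actin the signal at the 3′ end over that at the 5′ end, which reflects how intact and how fully labelled the RNA was, was 3.87 times as high at E18 as at E16 and 2.46 times at P3, and that of Gapdh 1.42 and 0.355 times. The part of these array differences in the E18 peak of Cyp26a1, the lower Aldh1a2 at E18 and the E18 lows of Aldh1a3, Rarb and Rarg was not tested.

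Counted over probe sets, at E18 against E16 8 of the 12 were measured, of which 1 (Cyp26a1) was at least 2-fold higher, where 7.77% of all probe sets were, and 2 (Aldh1a2 and Rarg) were at least 2-fold lower, where 8.02% were. The median of the 8 differences was 1.68-fold lower, against 1.03-fold lower over all probe sets. Without a floor, over all 12, it was -0.36 on the log2 scale, against -0.75 with the floor of 82.0. At P3 against E18, 7 were measured, with 1 higher (Rarg) against 3.85% of all probe sets and 2 lower (Cyp26a1 and Crabp2) against 11.1%, and a median 1.43-fold lower against 1.10-fold lower. This median turned with the floor, to 0.74 on the log2 scale over 5 probe sets with a floor 2 times as high and to 0.77 over all 12 without one, against -0.52 with the floor of 82.0. At P3 against E16, 7 were measured, with 0 higher against 6.19% and 2 lower (Aldh1a2 and Crabp2) against 15%, and a median 1.18-fold lower against 1.12-fold lower. The comparisons share arrays, so their counts are not independent. Aldh1a3, Cyp26a1, Rarb and Rarg, measured on all arrays, were within 1.18-fold between P3 and E16, and Aldh1a2 and Crabp2 were not. After quantile normalization those 4 were 0.11 to 0.39 higher at P3 on the log2 scale. The median of the 7 turned to 0.11, against -0.24 with the deposited scaling and the same floor.

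**Figure D3:**
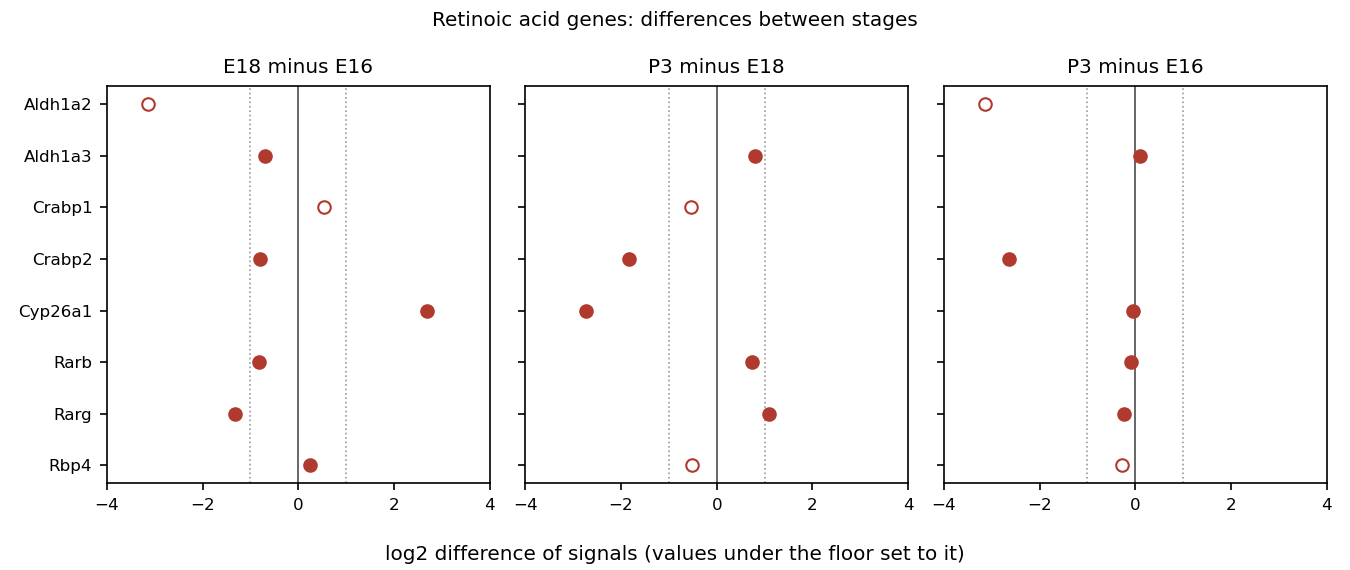
Log2 differences (horizontal axis) of the 8 probe sets with a signal at or above the floor on at least 1 array, for E18 minus E16, P3 minus E18 and P3 minus E16; filled points were measured on both arrays, open points are bounds with 1 stage at the floor, and dotted lines mark 2-fold. Cyp26a1 stands at 2.69, -2.74 and -0.05, Crabp2 at -0.80, -1.84 and -2.64, and Aldh1a2 at -3.15 in both comparisons with E16.

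Beyond these genes, 72 other genes of the retinoid pathway were listed, of which 61 are on the array with 1 symbol, 40 reached the floor on at least 1 array and 21 on none; the other 11 were not analysed here. Each gene is given by its brightest probe set, the one with the highest mean recovered signal. At E18 against E16, 5 of 36 measured genes passed 2-fold upward and 3 downward, against 8.1% and 8.13% of all genes. At P3 against E18, 3 of 40 were higher and 5 lower, against 4.07% and 11.8%. At P3 against E16, 4 of 37 were higher and 9 lower, against 6.57% and 15.6%. The median differences were 1.01-fold higher, 1.08-fold lower and 1.10-fold lower in that order, against 1.03-fold, 1.11-fold and 1.12-fold lower over all genes. The direction of these small medians and the balance of calls at P3 depended on the scaling. Over all genes, with the floor of 82.0 throughout, 493 were higher and 1428 lower at P3 against E18 with the deposited scaling. After quantile normalization these were 796 and 874. At P3 against E16 they were 801 and 1902 with the deposited scaling, against 1228 and 1281. Of 20 measured genes with any of the 4 repeat forms in their promoter window, Rarb and Cyp26a1 among them, 2 passed 2-fold upward and 3 downward at E18 against E16. These are 10% and 15%, against the 8.1% and 8.13% of all genes, and Cyp26a1 is 1 of the 2. At P3 against E18, 1 of 20 was higher and 2 lower, and at P3 against E16, 3 of 21 were higher and 2 lower.

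Of the genes for retinol uptake, transport and storage, 6 of 8 were under the floor on all arrays, including the retinol receptor gene Stra6 with signals of 11.8 at E16, 39 at E18 and 27.7 at P3. Dgat1, an acyltransferase that can esterify retinol, had 1071, 369 and 412 in stage order and was 2.60-fold lower at P3 compared with E16. Lpl, a lipase that frees lipids from lipoproteins, had 1518, 1160.2 and 616 and was 2.47-fold lower.

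The enzymes between retinol and retinaldehyde were mostly measured. Rdh10, the dehydrogenase that makes most retinaldehyde in the embryo, had 1203, 1855 and 3727 in stage order, highest at P3, and was 3.10-fold higher at P3 compared with E16. Its other probe set gave 734, 1816 and 2611, a 3.56-fold difference of the same direction. Dhrs3, which turns retinaldehyde back to retinol and is a known retinoic acid target, had 375, 377 and 328 and stayed within 1.15-fold. Of the other retinol and retinal enzymes, Rdh11 was 2.14-fold lower (2.24-fold by its other probe set), Adh5 2.18-fold lower and Akr1b8 at least 2.78-fold lower at P3 compared with E16. Dhrs4 was 2.24-fold lower at P3 compared with E18, with another probe set under the floor.

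Of other enzymes that make or oxidise retinoids, Aldh1a1, the third retinaldehyde dehydrogenase, had 26.5 at E16, 85.7 at E18 and 24.4 at P3, just above the floor at E18 and under it at the other stages. Cyp1b1, a cytochrome P450 able to oxidise retinol, had 1733, 347 and 729, and was 5.0-fold lower at E18 compared with E16 and 2.10-fold higher at P3 compared with E18. Its second probe set, with 392, 29.6 and 110.2, also had its lowest value at E18.

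Among receptors, Rara was under the floor at every stage, with 13, 10.9 and 16. Rxra, a shared partner of the Rar receptors, had 275, 196 and 247, and a further probe set had 175, 80.0 and 161, so both were lowest at E18. Rxrb had 279.7, 341 and 486 and was 1.74-fold higher at P3 compared with E16, and Rxrg had 31, 84.3 and 2.3. Fabp5, a lipid carrier that can also bind retinoic acid, had 2028, 4389.5 and 1117, and was 2.16-fold higher at E18 compared with E16 and 3.93-fold lower at P3 compared with E18. A second Fabp5 probe set gave 341, 1241 and 232, the same order, and Fabp5 was among the 371 genes with this shape, as were 10 epithelial markers. Of coactivator genes, at P3 against E16 Ep300 was 2.72-fold higher, Ncoa3 2.42-fold higher (1.17-fold lower by another probe set) and Med1 2.0-fold lower (1.09-fold and 1.76-fold by 2 others measured on both arrays). Ncoa1 was 2.58-fold higher at P3 compared with E18 but 1.07-fold and 1.20-fold by 2 others. Nrip1, a corepressor gene induced by retinoic acid, was 2.10-fold higher at E18 compared with E16, while another bright probe set was 2.01-fold lower, so it has no single direction.

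Of 24 response genes on the array, 10 were under the floor on all arrays, among them Stra8, Hoxb1 and Cdx1. Ets1, a transcription factor gene, had 2837, 808 and 553 and was 5.13-fold lower at P3 compared with E16 (2.42-fold and 1.94-fold by 2 other probe sets measured on both arrays). Tshz1 was 3.18-fold higher at P3 compared with E16 (1.42-fold by another), and Rai14 2.02-fold lower (3.44-fold and 1.97-fold by 2 others). Tbx1, a transcription factor of pharyngeal and dental tissue, had 143, 576 and 109, and was 4.02-fold higher at E18 compared with E16 and 5.28-fold lower at P3 compared with E18. Meis1 was 2.34-fold lower at P3 compared with E18 by its brightest probe set, whereas another gave at least 1.94-fold higher.

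**Figure D4:**
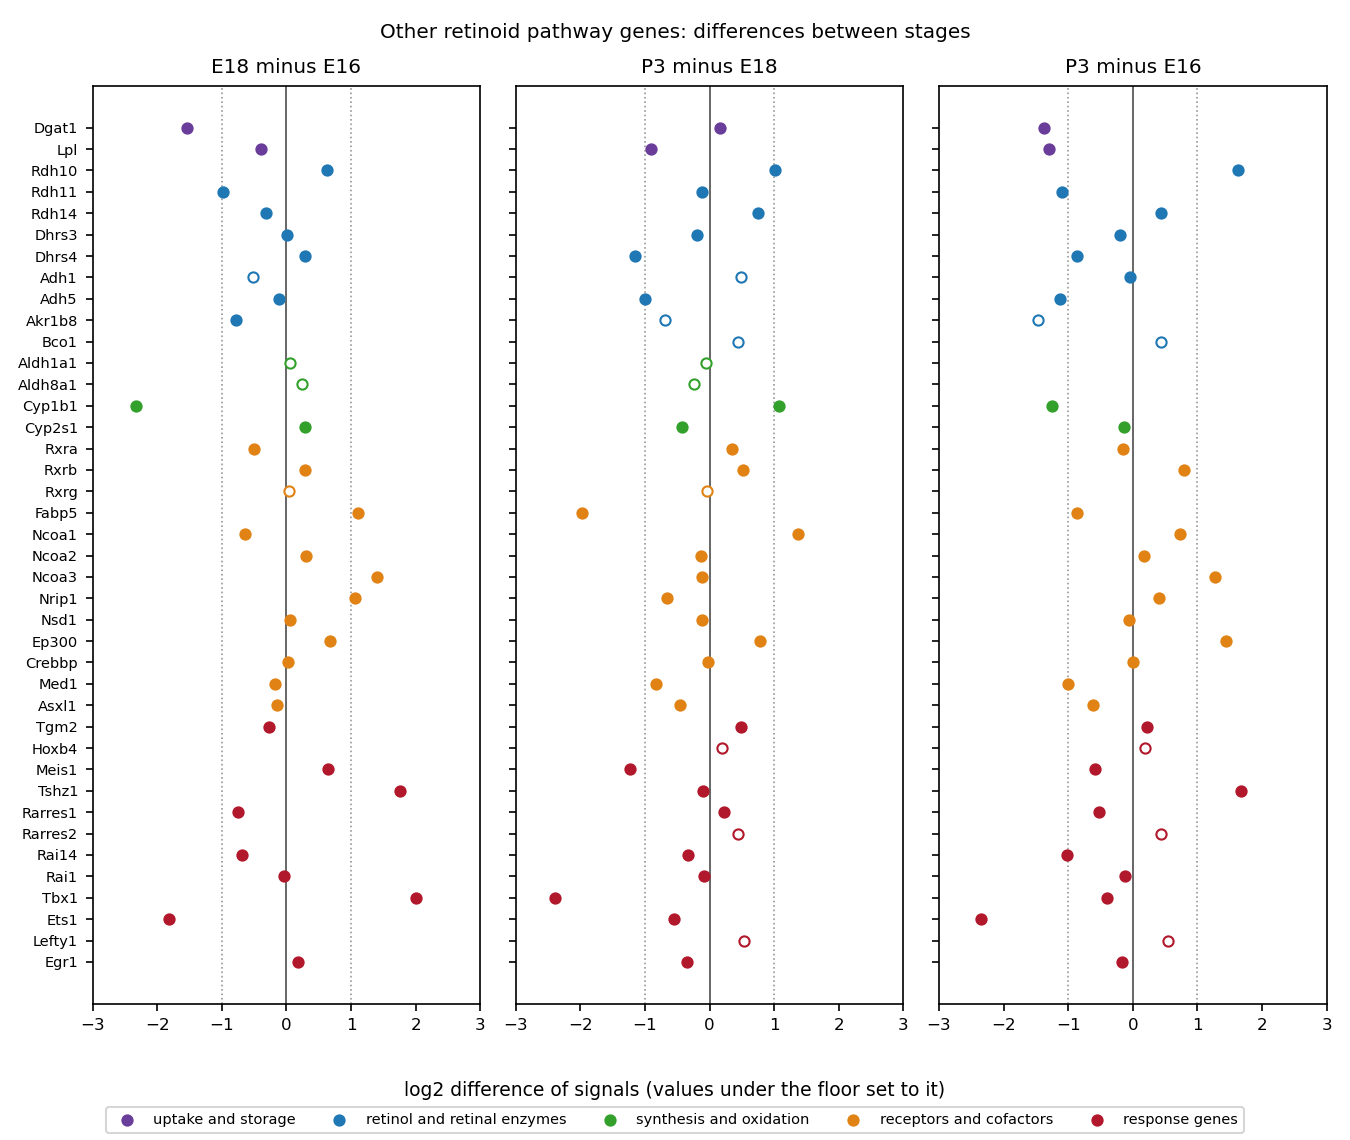
Log2 differences (horizontal axis) of the 40 other retinoid pathway genes with a signal at or above the floor on at least 1 array, coloured by list, for E18 minus E16, P3 minus E18 and P3 minus E16; filled points were measured on both arrays, open points are bounds and dotted lines mark 2-fold. Cyp1b1 is at -2.32 and Tbx1 at 2.01 at E18 minus E16, and Rdh10 at 1.63 and Ets1 at -2.36 at P3 minus E16.

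The genes closest to a retinoic acid gene in their pair of step differences were named from 9861 genes that reached the floor on every array, by the distance over both log2 differences. Those closest to Cyp26a1 were Dst (6.47-fold higher at E18, then 5.70-fold lower at P3), the epithelial splicing regulator gene Esrp1 (6.96-fold, then 5.82-fold) and Pfdn4 (5.84-fold, then 5.33-fold), at distances of 0.23 to 0.35. For Crabp2 they were the proteasome subunit gene Psmb7, Rnaseh2a and the purine synthesis gene Gart, at 0.05 to 0.08. Mpdu1, Krt81 and Kat6a lay within 0.0261 of Rarb. Slc5a3, Retn and Clip3 lay within 0.0834 of Rarg, and Cdh10, Ezh1 and Cep350 within 0.0227 of Aldh1a3. Likeness over 3 arrays is a description of these arrays.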

How the data were processed

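Affymetrix-style probe sets were read on 3 arrays, 1 each for E16, E18 and P3, from biotin-labelled cRNA made with 2-cycle labelling, per the labels' protocols. The deposited file holds ratios, 1 per array, of 45101 probe sets. Per the submitters' processing notes the software was GCOS, with no version; how arrays were scaled and centred is not given in the sources used. In 90.4% of probe sets the middle value is 1 within 1e-06, and in the other 4347 all values of the 3 arrays outside a lower limit of 0.01 lie within 0.01 of a whole number of steps, 0.718 (E16) and 1.08 (E18) relative to P3. The smallest level that makes all 3 signals whole steps of 0.1 within a relative 3e-07 was taken as the recovered signal (1 probe set had no solution), whereas the design had assumed that signals could be read off. Array medians were 82.0, 81.8 and 82.3 in stage order. The floor, 2-fold threshold and bounds are as described above.

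Names came from a platform annotation table: 34945 probe sets other than controls have 1 symbol, 932 several (none with a retinoic acid gene), and 0 symbols changed on update. The number of arrays, 3, limits the precision. All 12 probe sets are reported. Of each other list, up to 6 genes past 2-fold in any comparison with the largest P3 against E16 difference were named, with 9 core genes whatever their values (8 of them analysed here), 3 nearest genes per retinoic acid gene and up to 3 genes per marker list and comparison described. Further epithelial and papilla markers are named as examples, chosen after their values were seen. The genes and lists were chosen with earlier results of these data known. Alternatives were median scaling, quantile normalization, other floors, other thresholds and the median over probe sets. A further alternative left out probe sets with names ending in _s_at or _x_at and kept those in _a_at, among them Crabp1 and Rarg. Python 3.11.15, numpy 2.4.6 and pandas 2.3.3 were used.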

Additional observations from a re-analysis of the deposited data

How the results depend on the processing

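No paired analysis was possible because each stage has 1 array, and no replicate could be left out. Of the differences of single probe sets of the retinoic acid genes, 0 past 2-fold turned direction under quantile normalization. The other alternatives could not show this. Changing or removing the floor cannot turn a difference, and median scaling hardly moved arrays whose medians were already nearly level. No probe set of these genes has a name ending in _s_at or _x_at, so leaving those out removed none. Without floor and filter, 5, 6 and 5 probe sets of retinoic acid genes passed 2-fold at E18 against E16, P3 against E18 and P3 against E16 (3, 3 and 2 as reported), and 17, 19 and 24 other pathway genes (8, 8 and 13 as reported). Here probe sets with low signals enter. A 1.5-fold threshold gave 6 and 5 probe sets and 16 and 14 other genes for the first 2 comparisons. A 3-fold threshold gave 4, 2 and 3 other genes. The median over probe sets gave 5 and 4 other genes for the first 2 comparisons; the cause was not tested. Median scaling, a floor 0.5 or 2 times as high and leaving out probe sets named _s_at or _x_at kept each of these counts within 1.5 times. Quantile normalization did too, but it moved the median log2 difference of all genes from -0.15 to 0.03 at P3 against E18 and from -0.17 to 0.02 at P3 against E16, and that of the other pathway genes from -0.10 to 0.18 and from -0.14 to 0.09. It gave 6 of the other pathway genes higher and 4 lower at P3 against E16, where 4 and 9 were reported. The Aldh1a2 bound follows the floor: the log2 difference was -4.15 with the lower floor and -2.15 with the higher. So does that of Crabp1 at E18 against E16, 0.54 as reported, which was 1.54 with the lower floor and 1.83 without one, so that 2 probe sets of retinoic acid genes passed 2-fold upward there in place of 1.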
